A study of Mus musculus with 24 samples.

Results

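The 52 genes described here are cell cycle and mitosis genes, measured in blood of male C57BL/6J mice on one-colour Agilent microarrays. A gene was a member where a non-control probe of the scanner files carried its name, and all 52 were found, on 76 of 39429 probes and among 29711 named genes. The arrays fell into 4 groups: Gadd45aKO mice given 7 Gy of x-rays (9 arrays), Gadd45aKO mice at 0 Gy (5 arrays), Gadd45aWT mice given 7 Gy (5 arrays) and Gadd45aWT mice at 0 Gy (5 arrays). Blood of all groups was drawn by cardiac puncture 24 h after exposure into an RNA stabilising solution, so that each array holds RNA of whole blood. How the Gadd45a allele was made and the age of the mice are not given in the sources used here. The design crosses genotype label and dose, and so asks how 7 Gy changed blood transcripts under each label and whether the 2 responses differed.

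The probe for Gadd45a, a stress-inducible growth arrest gene, was not lower in the arrays labelled KO, so the genotype is written as a label throughout. At 7 Gy it averaged -0.01 ± 0.34 in KO-labelled arrays and -1.21 ± 0.32 in WT arrays (SD, n = 9 and 5), and at 0 Gy 0.5 ± 0.16 in KO-labelled and 0.65 ± 0.23 in WT arrays (SD, n = 4 and 5). The difference at 0 Gy was -0.14 ± 0.21 (SE, limma adjusted p 0.855). Whether that probe lies in the deleted part of the gene is not known from the files. These values and all levels below are log2 signals scaled by subtracting the 75th percentile of each array, computed from the 7851 probes that every one of the 24 arrays detected well above background, and they compare one probe between arrays, never different genes with each other. KO-labelled 0 Gy arrays 1 and 4 were as alike as repeat spots within an array, with a ratio of their difference to that noise of 1.04, and were counted as 1 sample, which leaves n = 4 in that group. Between 25.9% and 51.4% of probes were well above background per array. The design text speaks of 5 or 9 independent experiments per group, and no label ties an array to a mouse, so p-values reflect only how far these samples vary, which may be technical.

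Cells divide through an ordered programme. E2F factors and cyclin E open S phase and raise the enzymes that make deoxynucleotides, cyclins A and B with CDK1 drive entry into mitosis, the spindle checkpoint holds the anaphase-promoting complex (APC/C) until chromosomes are attached, and the APC/C then marks cyclins and securin for destruction. In blood most circulating cells do not divide, and transcripts of these genes can come from immature cells such as reticulocytes and from activated lymphocytes. Ionising radiation stabilises p53, which induces the CDK inhibitor p21 and lowers many late cell cycle genes in cells that keep intact p53.

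Many members share a promoter layout that the choice of genes did not use. In the RefSeq promoter table (build GRCm38.p6, 250 bases before to 50 after the start), 44 of the 52 members had 47 promoters. The cell cycle genes homology region (CHR, searched as TTTGAA or TTCGAA on both strands) stood in 63.8% of the members' promoters, against 19.2% of all 32851 promoters. The CCAAT box (CCAAT, both strands) stood in 72.3% of them against 37.4% of all promoters, and both motifs together in 57.4% against 7.52%. An E2F motif (TTCCCGC on either strand, or its variant TTGGCGC or variant TTCGCGC) stood in 17% against 8.07%. A motif counted whether or not it overlapped another, and CCAAT boxes on opposite strands can share bases. Of the promoters of members that fell after 7 Gy in WT arrays, 6 of 9 held a CHR, as did 12 of 23 promoters of members tested that did not fall and 12 of 15 of members too dim to test. The promoters of 3 members that fell in WT arrays are shown because they hold both motifs, and that of Nusap1 because it also fell and holds none of the 3. They lie at chr2:164769679-164769978 (plus strand) for Ube2c, chr9:70421505-70421804 (minus strand) for Ccnb2, chr5:30666636-30666935 (plus strand) for Cenpa and chr2:119618048-119618347 (plus strand) for Nusap1, and capitals mark CHR and CCAAT matches on either strand.
Ube2c: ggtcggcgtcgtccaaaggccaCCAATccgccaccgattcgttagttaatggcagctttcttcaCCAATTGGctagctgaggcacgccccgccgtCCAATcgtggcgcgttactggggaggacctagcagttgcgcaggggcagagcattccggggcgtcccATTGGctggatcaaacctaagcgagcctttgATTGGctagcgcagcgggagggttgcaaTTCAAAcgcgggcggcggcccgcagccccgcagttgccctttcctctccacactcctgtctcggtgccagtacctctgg
Ccnb2: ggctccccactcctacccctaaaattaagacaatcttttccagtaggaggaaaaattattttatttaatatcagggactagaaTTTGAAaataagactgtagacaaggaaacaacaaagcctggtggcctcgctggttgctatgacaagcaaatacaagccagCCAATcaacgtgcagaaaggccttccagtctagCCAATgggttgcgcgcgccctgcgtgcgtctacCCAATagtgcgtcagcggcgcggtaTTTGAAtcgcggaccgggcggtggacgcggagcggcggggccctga
Cenpa: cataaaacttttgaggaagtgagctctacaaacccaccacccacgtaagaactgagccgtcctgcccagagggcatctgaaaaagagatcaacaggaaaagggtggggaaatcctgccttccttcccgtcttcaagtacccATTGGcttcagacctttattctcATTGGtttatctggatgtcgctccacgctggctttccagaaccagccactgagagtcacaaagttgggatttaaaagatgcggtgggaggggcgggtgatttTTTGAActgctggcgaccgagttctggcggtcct
Nusap1: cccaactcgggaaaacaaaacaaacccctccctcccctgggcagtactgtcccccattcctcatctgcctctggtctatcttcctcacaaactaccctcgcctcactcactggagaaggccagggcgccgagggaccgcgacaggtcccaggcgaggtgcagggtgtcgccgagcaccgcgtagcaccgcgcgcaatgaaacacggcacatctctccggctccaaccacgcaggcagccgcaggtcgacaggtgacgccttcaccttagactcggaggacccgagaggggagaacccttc
In the Ube2c promoter the CHR is on the minus strand with its first base at -29 from the start, and in the Ccnb2 and Cenpa promoters a CHR lies just after the start, at 5 and 17. A match describes these letters only.

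Of the 52 members, 33 passed the filter on dim probes (well above background on at least 5 arrays), and 10 were well above background on all 24 arrays. The 10 are Birc5, Ccna2, Ccne1, Mki67, Nusap1, Pttg1, Racgap1, Rrm2, Spc25 and Ube2c. The other 19 were not tested. Of these, Top2a (DNA topoisomerase II alpha), Ccnb1 (cyclin B1), Kif20a and Anln were well above background on 4 arrays each, Aurka on 2, and Bub1b, Kif2c and Ect2 on 1. Ccne2, Cdc25c, Melk, Bub1, Ttk, Cenpf, Nuf2, Aurkb, Kif11, Kif4 and Dlgap5 were not well above background on any array. Top2a was above background on 1 of 9 KO-labelled 7 Gy arrays, 3 of 5 KO-labelled 0 Gy arrays, and none of the 5 WT 7 Gy or the 5 WT 0 Gy arrays.

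After 7 Gy in KO-labelled arrays, 9 of the 33 members tested fell (Cenpa, Nusap1, Tk1, Mad2l1, Rrm1, Ccna2, Ube2c, Cks2 and Kif23) and 2 rose (Gtse1 and Cdca8) at an adjusted p under 0.05, against 34.8% of all genes lower and 12.2% higher. In WT arrays 10 fell and 2 rose, against 13.3% of all genes lower and 10.1% higher. Ccna2, Ube2c, Nusap1, Cdca3, Cenpa, Birc5, Mki67, Ccnb2, Mad2l1 and Cdc20 fell there, and Gtse1 and Cks2 rose. Gtse1 passed the filter only through 7 Gy arrays, which favoured a rise, so its calls under both labels are not support for one. The share of members that fell in KO-labelled arrays, 27.3%, was thus below that of all genes, and in WT arrays, 30.3%, above it. The members' median log2 change was -0.22 in KO-labelled arrays, where all genes had -0.27, and -0.38 in WT arrays, where all genes had -0.05. Relative to all genes, the members' median therefore lay at 0.04 in KO-labelled and -0.34 in WT arrays. The WT value was -0.14 without WT 7 Gy arrays 3 to 5, described below, and 0.0734 with normexp background correction. Within slides 1 to 5, which each held 1 array of every group, the members' median change ran from -0.5 to 0.06 in KO-labelled and from -0.79 to -0.28 in WT arrays. The median of all genes ran from -0.54 to -0.16 and from -0.11 to 0.01 on the same slides.

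**Figure D1:**
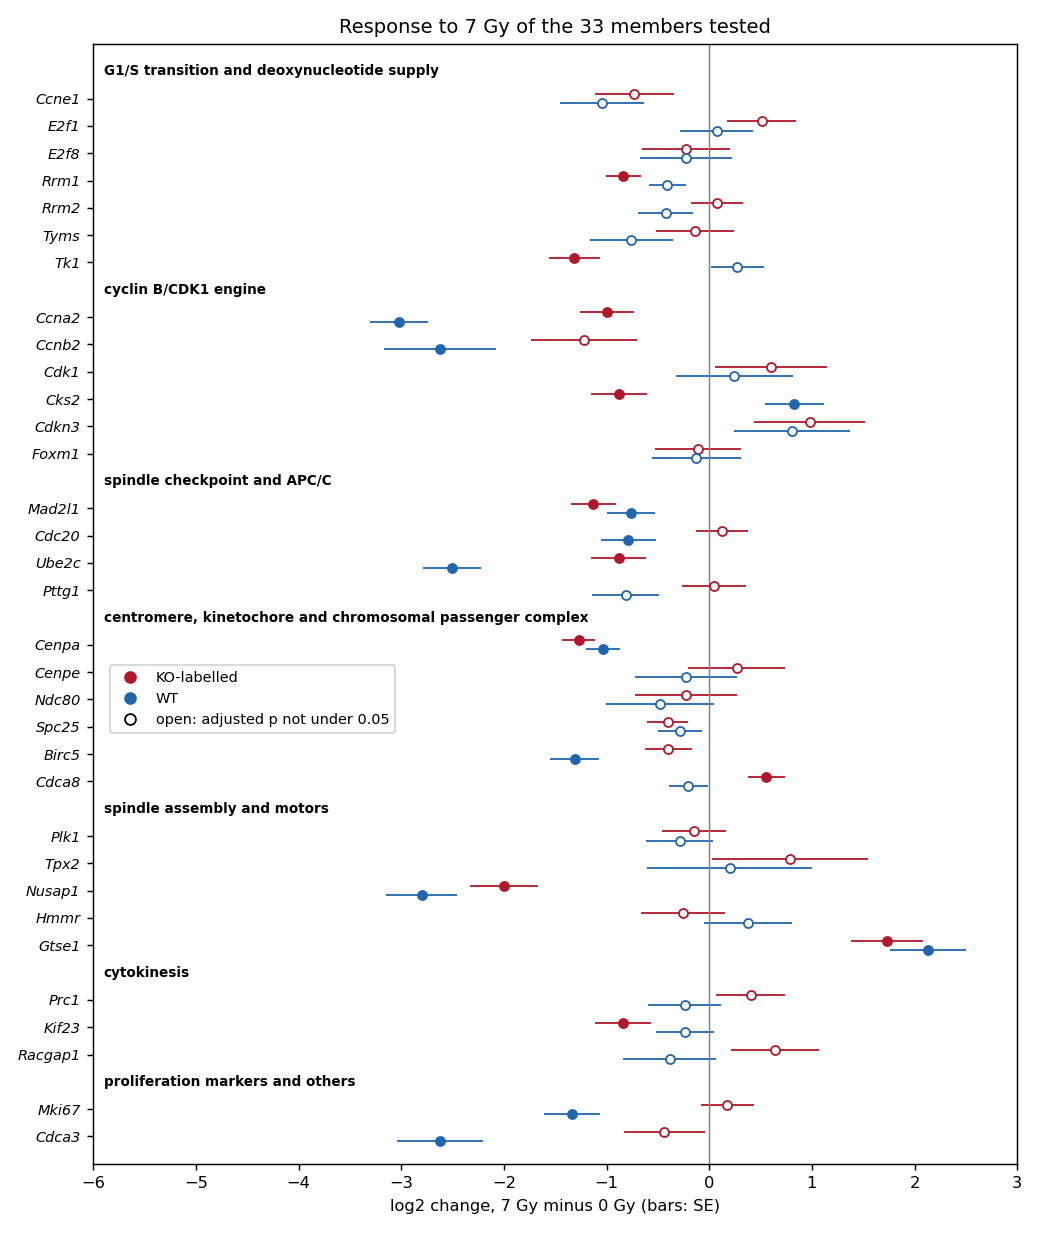
Log2 change after 7 Gy (7 Gy minus 0 Gy) of the 33 members tested, by role, in KO-labelled (red) and WT (blue) arrays; bars are the standard error and filled points passed the test. Ccna2, Ccnb2, Ube2c, Nusap1 and Cdca3 lie furthest to the left in WT arrays, at -2.51 or below, and Gtse1 lies to the right under both labels; Cdca3 in WT arrays and Gtse1 under both labels are fitted values with 1 group not well above background.

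WT 7 Gy arrays 3 to 5 stood apart from arrays 1 and 2 of that group in the members and in markers of other cells. The mean of the 10 members detected on all arrays was -2.47 and -2.37 on WT 7 Gy arrays 1 and 2 and -3.28, -3.45 and -3.42 on arrays 3 to 5. On the same arrays the mean of 19 erythroid markers was -0.26 and -0.34, then -1.31, -1.33 and -1.33, and that of 18 hepatocyte genes was -2.31 and -2.34, then 1.52, 1.52 and 1.44. The mean of the 10 members ran from -2.62 to -1.41 in KO-labelled 7 Gy arrays, from -1.57 to -1.23 in KO-labelled 0 Gy arrays and from -1.67 to -1.53 in WT 0 Gy arrays. Erythroid means in those 3 groups ran from -0.53 to 0.63, from 0.46 to 1.04 and from 0.61 to 0.74, and hepatocyte means from -4.52 to -2.26, from -7.2 to -3.42 and from -6.77 to -6.49. The KO-labelled 7 Gy array with the lowest member mean, array 9, also had the lowest erythroid mean of its group. KO-labelled 7 Gy arrays 6 to 9 shared slide 6, which held no other group, and their member means were -2.16, -2.17, -1.58 and -2.62. Those of KO-labelled 7 Gy arrays 1 to 5, on slides 1 to 5, ran from -1.96 to -1.41. An effect of slide 6 and a difference of its samples cannot be told apart. Erythroid markers are given because transcripts of the members can come from reticulocytes, and hepatocyte genes because their transcripts were measured in this blood. Of the 19 erythroid markers tested, 9 fell and 5 rose in KO-labelled arrays (median log2 change -0.35), and 11 fell and 0 rose in WT arrays (median -1.98). Among all genes, 34.8% fell and 12.2% rose in KO-labelled arrays, and 13.3% fell and 10.1% rose in WT arrays. The part of either cell type in the members' changes was not tested, and in whole blood fewer cells of a type and less RNA per cell cannot be told apart.

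**Figure D2:**
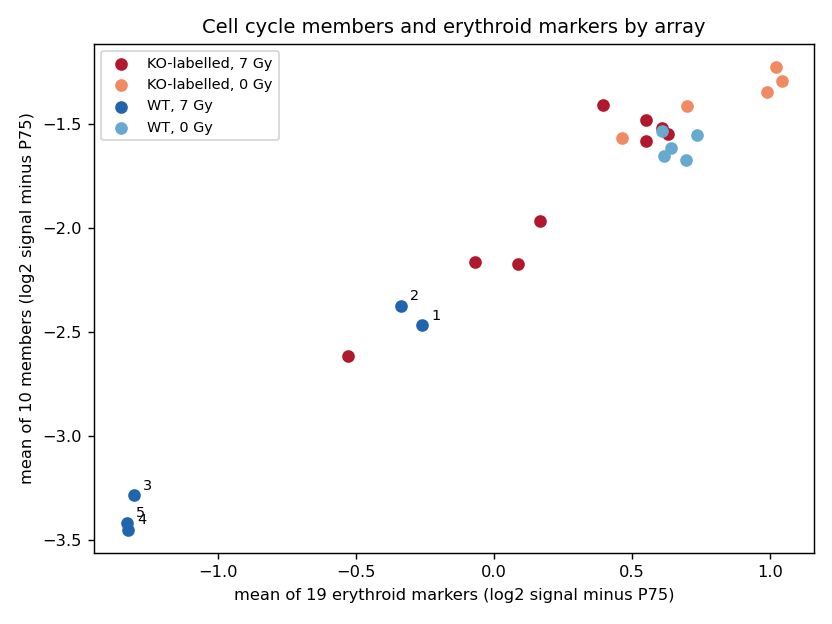
Mean level of the 10 members well above background on all arrays (vertical) and mean of 19 erythroid markers (horizontal), both as log2 signal minus the array's 75th percentile, 1 point per array; numbers are the WT 7 Gy replicates. WT 7 Gy arrays 3 to 5 sit at the lower left, with member means of -3.28 to -3.45 beside erythroid means of -1.31 to -1.33.

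Without WT 7 Gy arrays 3 to 5, which leaves 2 arrays in that group, 5 members fell in WT arrays (Ccna2, Ube2c, Nusap1, Cdca3 and Cenpa), where 5.46% of all genes were lower in that fit, and 1 rose (Gtse1), where 4.91% were higher. The members' median change in WT arrays was then -0.17, and -0.14 relative to all genes. The calls for Ccnb2, Mad2l1, Cdc20, Birc5, Mki67 and Cks2 then ended. This setting was chosen after seeing the data. Of members not called in WT arrays, E2f8, Rrm2, Tk1, Foxm1, Cenpe, Ndc80, Spc25 and Prc1 had a WT change of the other sign without those arrays. Of the erythroid markers, 9 fell and 1 rose in WT arrays in that fit, with a median of -1.02.

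Of 6 members of the cyclin and CDK1 engine tested, 2 fell in KO-labelled arrays, and 2 fell and 1 rose in WT arrays. Ccna2 encodes cyclin A2, which acts in S phase and at entry into mitosis, and was 1.99-fold lower after 7 Gy in KO-labelled arrays and 8.11-fold lower in WT arrays. Its 60-base probe lies at chr3:36463978-36464037 on the minus strand (mm9, per the file headers) and reads as follows; no mm9 annotation was used here, so exon and intron are not stated for probes.
Ccna2: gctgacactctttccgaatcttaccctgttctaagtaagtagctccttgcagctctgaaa
Its level in KO-labelled 7 Gy arrays was -3.81 to -2.41 (median -2.85), against -1.64, -2.25, -1.94, -1.72 and -1.77 in the KO-labelled 0 Gy arrays. Irradiated WT arrays had it at -4.48, -4.19, -5.73, -5.27 and -5.61, against -2.24, -1.86, -2.1, -1.98 and -2.02 in the WT 0 Gy arrays. Every irradiated array lay below every 0 Gy array of its label, and WT 7 Gy arrays 3 to 5 lay below arrays 1 and 2. The log2 change was -1.0 ± 0.27 (SE, adjusted p 0.00375) in KO-labelled and -3.02 ± 0.28 (SE, adjusted p 4.02e-08) in WT arrays. Without WT 7 Gy arrays 3 to 5 it was -2.3 ± 0.3 (SE, adjusted p 3.43e-05) in WT arrays.

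Ccnb2 (cyclin B2, a CDK1 partner) had levels in KO-labelled 7 Gy arrays of -6.22 to -1.77 (median -2.18), against -1.32, -1.64, -1.61, -1.36 and -1.45 in KO-labelled 0 Gy arrays. In WT 7 Gy arrays it read -4.05, -3.97, -4.62, -4.5 and -4.68, against -1.85, -1.67, -1.77, -1.72 and -1.71 in WT 0 Gy arrays. Neither pair of groups overlapped, and the KO-labelled 7 Gy array 5, at -6.22, was the only one of its group not well above background. The change was -1.22 ± 0.52 (SE, adjusted p 0.0567) in KO-labelled arrays, where it did not pass the test, and -2.62 ± 0.54 (SE, adjusted p 0.000990) in WT arrays. With the slide as a block the KO-labelled change passed too, at -1.42 with an adjusted p of 0.0221. Leaving out WT 7 Gy arrays 3 to 5, the WT change was -2.27 ± 0.76 (SE, adjusted p 0.0674).

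Cks2, a small CDK-binding subunit, was called in opposite directions under the 2 labels. It was well above background on 4 of 9 KO-labelled 7 Gy and 4 of 5 KO-labelled 0 Gy arrays, and on all WT arrays. Its levels were -6.97 to -5.66 (median -6.06) in KO-labelled 7 Gy arrays, against -5.71, -5.41, -5.42, -5.11 and -5.07 in KO-labelled 0 Gy arrays, and -5.78, -5.72, -4.23, -4.34 and -4.35 in WT 7 Gy arrays, against -5.68, -5.75, -5.59, -5.77 and -5.78 in WT 0 Gy arrays. WT 7 Gy arrays 3 to 5 alone lay above the WT 0 Gy arrays, and arrays 1 and 2 lay at -5.78 and -5.72, like the 0 Gy arrays. The changes were -0.88 ± 0.27 (SE, adjusted p 0.0107) in KO-labelled and 0.83 ± 0.29 (SE, adjusted p 0.0387) in WT arrays, and without arrays 3 to 5 the WT value was -0.04 ± 0.27 (SE, adjusted p 0.968). With the replicate number as a block, the adjusted p of the rise in WT arrays was 0.0594, and leaving out any WT 0 Gy array or WT 7 Gy array 3, 4 or 5 ended that call (0.67 to 0.86, adjusted p 0.0552 to 0.126). The KO-labelled fall did not pass with 3 other scalings of the arrays (adjusted p 0.0683 to 0.250). Cdk1 itself, Cdkn3 (a CDK phosphatase) and Foxm1 (a transcription factor of G2 genes) passed no test of dose in the fit without a block, with changes from -0.12 to 0.98 over both labels. Cdk1 was well above background on 5 of 9 KO-labelled 7 Gy and 3 of 5 KO-labelled 0 Gy arrays, and had changes of 0.6 ± 0.54 (SE, adjusted p 0.383) in KO-labelled and 0.25 ± 0.57 (SE, adjusted p 0.836) in WT arrays. With the slide as a block its KO-labelled change passed, at 1.04 (adjusted p 0.0315), and within slides it ran from 0.25 to 1.5.

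**Figure D3:**
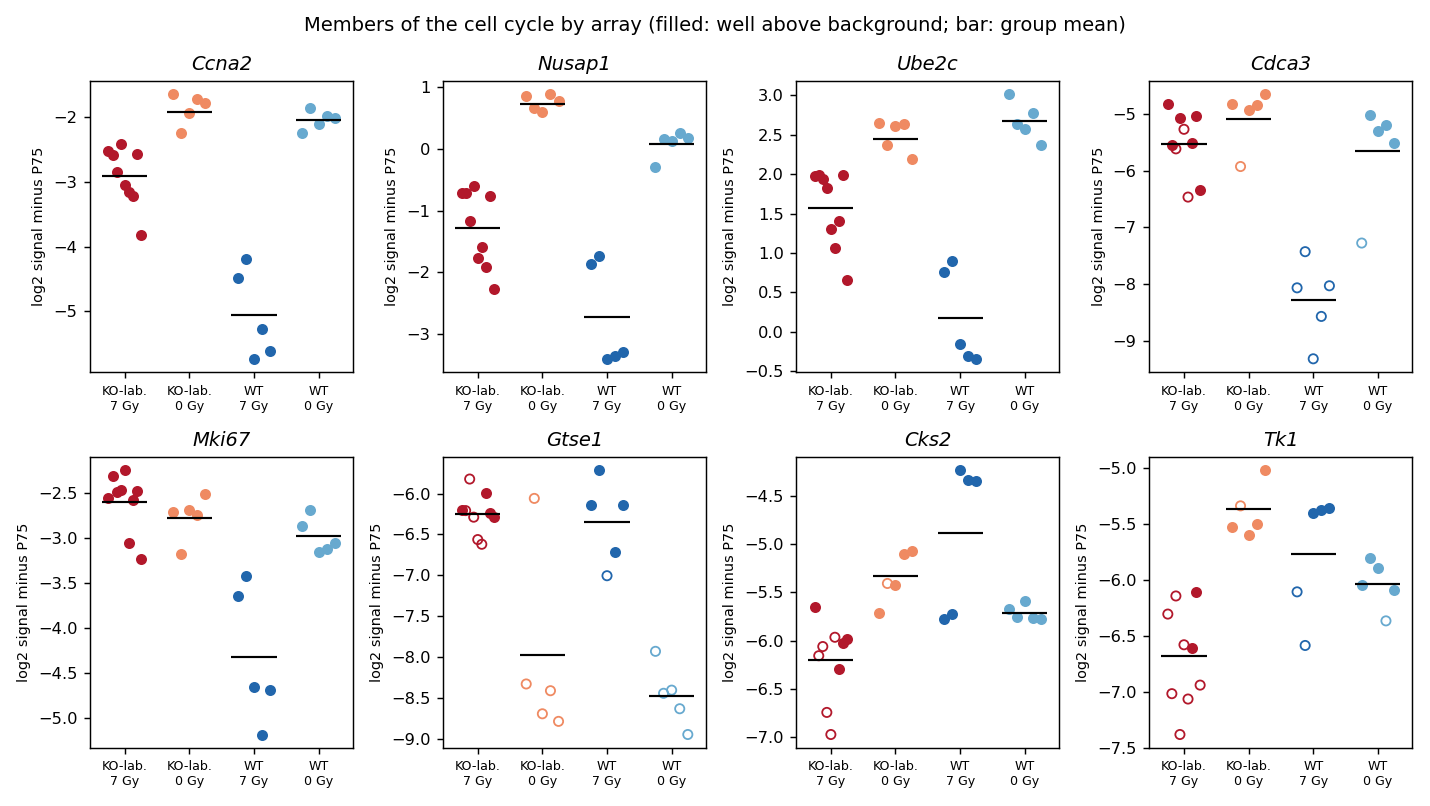
Level of 8 members on each array (log2 signal minus the array's 75th percentile) by group; filled points were well above background, open points were not, and bars are group means with the near-identical KO-labelled 0 Gy arrays averaged. Nusap1, Ube2c and Ccna2 are lower at 7 Gy on every array of both labels, and for Nusap1 the WT 7 Gy arrays split into arrays 1 and 2, at -1.86 and -1.73, and arrays 3 to 5, at -3.4 to -3.29.

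Of 4 checkpoint and APC/C members tested, 2 fell in KO-labelled and 3 in WT arrays. Ube2c, the ubiquitin-conjugating enzyme that works with the APC/C, was 1.84-fold lower in KO-labelled arrays and 5.68-fold lower in WT arrays after 7 Gy. The probe lies at chr2:164598016-164598075 (plus strand, mm9).
Ube2c: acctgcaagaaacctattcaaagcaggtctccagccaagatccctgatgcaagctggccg
Its levels in KO-labelled 7 Gy arrays were 0.65 to 2.0 (median 1.82), against 2.65, 2.37, 2.61, 2.63 and 2.19 in KO-labelled 0 Gy arrays. WT 7 Gy arrays had 0.75, 0.89, -0.16, -0.31 and -0.35, against 3.02, 2.63, 2.58, 2.77 and 2.37 in WT 0 Gy arrays. The irradiated arrays lay below all 0 Gy arrays under each label. The changes were -0.88 ± 0.27 (SE, adjusted p 0.00880) in KO-labelled and -2.51 ± 0.28 (SE, adjusted p 5.59e-07) in WT arrays, and the WT fall kept its call without arrays 3 to 5, at -1.85 ± 0.32 (SE, adjusted p 0.000675). The KO-labelled fall did not pass with 2 other scalings (adjusted p 0.0774 and 0.12). A further Ube2c probe passed both tests, at -0.83 in KO-labelled and -2.44 in WT arrays.

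Mad2l1, the checkpoint protein that inhibits Cdc20, had -6.95 to -5.95 (median -6.15) in KO-labelled 7 Gy arrays, against -5.45, -4.66, -5.29, -5.38 and -5.07 in KO-labelled 0 Gy arrays. On the WT side, 7 Gy arrays read -5.72, -5.95, -7.19, -6.21 and -6.11, against -5.29, -5.39, -5.64, -5.72 and -5.31 in WT 0 Gy arrays. The KO-labelled groups did not overlap, and the WT groups did. Only 4 of 9 KO-labelled 7 Gy arrays were well above background, against 4 of 5 at 0 Gy. The changes were -1.13 ± 0.22 (SE, adjusted p 0.000230) and -0.76 ± 0.23 (SE, adjusted p 0.0190), and the WT value was -0.36 ± 0.25 (SE, adjusted p 0.472) without arrays 3 to 5. Leaving out WT 7 Gy array 3 alone ended the WT call, with an adjusted p of 0.0704. The direction turned under both labels with normexp background correction (0.34 in KO-labelled and 0.68 in WT arrays) and in the authors' deposited table (0.63 in KO-labelled and 0.4 in WT arrays). The median of all genes was then 0.46 and 0.61 with normexp, and 0.27 and 0.12 in that table.

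Cdc20, the APC/C activator, did not change by the test in KO-labelled arrays, at 0.13 ± 0.25 (SE, adjusted p 0.712), with levels of -5.64 to -4.73 (median -5.23) at 7 Gy against -5.33, -6.35, -5.27, -5.14 and -4.52 at 0 Gy. At 7 Gy the WT arrays were at -5.98, -5.6, -6.72, -6.29 and -6.37, against -5.38, -5.47, -5.35, -5.47 and -5.33 in WT 0 Gy arrays. The WT groups did not overlap, with array 2 nearest to the 0 Gy arrays. The WT change was -0.79 ± 0.27 (SE, adjusted p 0.0348), and -0.39 ± 0.35 (SE, adjusted p 0.617) without arrays 3 to 5. Its call ended when any WT 0 Gy array, or WT 7 Gy array 3, 4 or 5, was left out (adjusted p 0.0541 to 0.110). Pttg1 (securin) passed neither test, at 0.04 ± 0.31 (SE, adjusted p 0.924) in KO-labelled and -0.82 ± 0.33 (SE, adjusted p 0.0781) in WT arrays, and its WT change passed with the replicate number as a block (adjusted p 0.0450).

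Of 6 centromere, kinetochore and passenger complex members tested, Cenpa fell under both labels, Birc5 fell in WT arrays and Cdca8 rose in KO-labelled arrays. Cenpa encodes the histone H3 variant that marks centromeres. KO-labelled 7 Gy arrays read -5.61 to -4.86 (median -5.1), against -4.0, -3.79, -3.99, -3.99 and -3.89 in KO-labelled 0 Gy arrays. WT 7 Gy arrays had -5.72, -5.31, -5.83, -5.47 and -5.33, against -4.73, -4.63, -4.51, -4.42 and -4.2 in WT 0 Gy arrays. No irradiated array reached a 0 Gy array of its label, and WT 7 Gy arrays 3 to 5 did not stand apart here. The changes were -1.27 ± 0.16 (SE, adjusted p 1.42e-06) and -1.03 ± 0.17 (SE, adjusted p 6.75e-05), with a difference of responses of -0.24 ± 0.23 (SE, adjusted p 0.506). The WT value was -1.02 ± 0.22 (SE, adjusted p 0.00494) without arrays 3 to 5.

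Birc5 (survivin, of the chromosomal passenger complex) had -4.07 to -3.15 (median -3.5) in KO-labelled 7 Gy arrays, against -3.19, -3.39, -3.07, -3.29 and -2.86 in KO-labelled 0 Gy arrays. In WT 7 Gy arrays it was -4.06, -4.17, -5.48, -5.11 and -5.13, against -3.25, -3.56, -3.53, -3.65 and -3.43 in WT 0 Gy arrays. The WT groups did not overlap, and arrays 3 to 5 lay below arrays 1 and 2. The changes were -0.4 ± 0.23 (SE, adjusted p 0.161) in KO-labelled and -1.31 ± 0.24 (SE, adjusted p 0.000288) in WT arrays, and -0.63 ± 0.24 (SE, adjusted p 0.108) in WT arrays without arrays 3 to 5. The other Birc5 probes had KO-labelled changes of the opposite sign, 0.43 and 0.23, neither past the test.

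Cdca8 (borealin, of the same complex) was higher in KO-labelled 7 Gy arrays, at -4.77 to -4.05 (median -4.28), than in KO-labelled 0 Gy arrays, at -4.94, -5.4, -5.02, -4.93 and -4.29. The irradiated WT arrays showed -5.2, -4.9, -5.08, -5.22 and -5.54, against -5.04, -4.82, -4.64, -5.24 and -5.19 in WT 0 Gy arrays. The KO-labelled groups overlapped through 0 Gy array 5. The changes were 0.56 ± 0.18 (SE, adjusted p 0.0158) and -0.2 ± 0.19 (SE, adjusted p 0.529), and the KO-labelled rise did not pass with the slide as a block (0.42, adjusted p 0.0574), with the replicate block (adjusted p 0.0689), with the mean of its probes (adjusted p 0.157) or without KO-labelled 0 Gy array 2 (0.39, adjusted p 0.0986). Cenpe (a kinetochore motor), Ndc80 and Spc25 (subunits of the microtubule-binding complex of the kinetochore) passed no test of dose, with changes from -0.48 to 0.27.

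The spindle group held the fall that kept its call under all 14 alternatives in both labels, that of Nusap1. It also held a rise called under both labels, that of Gtse1, whose probe passed the filter only through 7 Gy arrays. Nusap1 binds and bundles spindle microtubules. It was 4.0-fold lower in KO-labelled arrays and 6.98-fold lower in WT arrays after 7 Gy. The probe lies at chr2:119475072-119475131 (plus strand, mm9).
Nusap1: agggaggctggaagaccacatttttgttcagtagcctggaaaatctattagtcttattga
KO-labelled 7 Gy arrays had -2.26 to -0.6 (median -1.16), against 0.85, 0.65, 0.6, 0.88 and 0.78 in KO-labelled 0 Gy arrays. Irradiated WT arrays were at -1.86, -1.73, -3.4, -3.34 and -3.29, against -0.3, 0.15, 0.12, 0.25 and 0.18 in WT 0 Gy arrays. All irradiated arrays lay below all 0 Gy arrays of their label, and in the WT group arrays 3 to 5 lay lowest. The changes were -2.0 ± 0.33 (SE, adjusted p 4.18e-05) and -2.8 ± 0.35 (SE, adjusted p 2.48e-06), and -1.87 ± 0.38 (SE, adjusted p 0.00224) in WT arrays without arrays 3 to 5. Within slides the fall ran from -2.54 to -1.37 in KO-labelled and from -3.59 to -1.56 in WT arrays.

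Gtse1, a microtubule-associated protein of G2 and S phase that binds p53, rose under both labels. The probe lies at chr15:85706887-85706946 (plus strand, mm9), and 21.7% of its bases are G or C.
Gtse1: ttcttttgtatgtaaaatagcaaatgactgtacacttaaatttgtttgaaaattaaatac
It was well above background on 4 of 9 KO-labelled 7 Gy arrays and on 0 of 5 KO-labelled 0 Gy arrays, and on 4 of 5 WT 7 Gy arrays and 0 of 5 WT 0 Gy arrays. The filter on dim probes thus kept it only through irradiated arrays and favoured a rise, so its tests are not support for one. Levels ran in KO-labelled 7 Gy arrays over -6.62 to -5.82 (median -6.23), against -8.33, -6.06, -8.7, -8.41 and -8.79 in KO-labelled 0 Gy arrays. In WT 7 Gy arrays they were -6.14, -5.71, -7.01, -6.72 and -6.14, against -7.93, -8.45, -8.41, -8.63 and -8.95 in WT 0 Gy arrays. The WT groups did not overlap, and the KO-labelled groups overlapped only through 0 Gy array 2. Since both 0 Gy groups were below background, only a bound can be given: at least 1.65-fold higher in KO-labelled 7 Gy arrays (adjusted p 0.000364) and at least 1.5-fold higher in WT 7 Gy arrays (adjusted p 0.000174). Such a bound sets the mean of the brighter group against the lowest signal of probes well above background, or the probe's own where that is higher. That mean includes arrays not well above background. In KO-labelled 7 Gy arrays only 4 of 9 were well above it, so the bound there is itself uncertain. Plk1, Tpx2 and Hmmr passed no test of dose on their chosen probes. For Tpx2, which brings Aurora A to the spindle, a second probe, well above background on 9 arrays, was lower in WT arrays at -1.81 ± 0.29 (SE), while the chosen one was at 0.2 ± 0.8 (SE). In KO-labelled arrays the chosen probe was at 0.79 ± 0.76 (SE, adjusted p 0.419) and passed with the slide as a block, at 1.23 (adjusted p 0.0325), where the second probe was at -0.57 ± 0.27 (SE) without a block.

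Among cytokinesis genes, Kif23 (a motor of the central spindle) had -8.67 to -6.82 (median -7.38) in KO-labelled 7 Gy arrays, against -6.38, -6.82, -7.04, -6.81 and -6.13 in KO-labelled 0 Gy arrays. It was well above background on 1 of 9 and on 4 of 5 of these. WT arrays at 7 Gy stood at -6.7, -7.01, -5.99, -5.74 and -6.05, against -5.81, -5.95, -6.11, -6.37 and -6.07 in WT 0 Gy arrays. The groups overlapped under both labels. The changes were -0.84 ± 0.27 (SE, adjusted p 0.0129) in KO-labelled and -0.23 ± 0.28 (SE, adjusted p 0.640) in WT arrays, and the KO-labelled fall did not pass with 3 other scalings (adjusted p 0.0677 to 0.332) or without KO-labelled 0 Gy array 5 (adjusted p 0.0729). Prc1 (a cross-linker of antiparallel microtubules) and Racgap1 (a GTPase-activating protein of the central spindle) passed no test of dose without a block. With the slide as a block Racgap1 was higher in KO-labelled arrays, at 1.04 (adjusted p 0.00626). A second Racgap1 probe fell under both labels, at -0.7 ± 0.25 in KO-labelled and -0.98 ± 0.27 in WT arrays (SE), where the chosen probe was at 0.64 ± 0.43 and -0.38 ± 0.45 (SE).

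Of the G1/S and deoxynucleotide genes, Rrm1 (the large subunit of ribonucleotide reductase) and Tk1 (thymidine kinase) fell in KO-labelled arrays, and none of the 7 tested passed in WT arrays. Rrm1 was at -5.72 to -5.02 (median -5.3) in KO-labelled 7 Gy arrays, against -4.53, -4.86, -4.67, -4.46 and -3.9 in KO-labelled 0 Gy arrays. In WT 7 Gy arrays it read -5.0, -5.03, -5.57, -5.58 and -5.07, against -4.98, -4.75, -4.88, -4.76 and -4.85 in WT 0 Gy arrays. Neither pair of groups overlapped. The changes were -0.84 ± 0.17 (SE, adjusted p 0.000374) and -0.41 ± 0.18 (SE, adjusted p 0.113), and the KO-labelled one was -0.41 with an adjusted p of 0.111 after quantile normalization.

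Tk1 levels in KO-labelled 7 Gy arrays were -7.38 to -6.11 (median -6.61), against -5.53, -5.34, -5.6, -5.5 and -5.02 in KO-labelled 0 Gy arrays. WT 7 Gy arrays had -6.11, -6.59, -5.4, -5.38 and -5.36, against -6.05, -5.81, -5.89, -6.37 and -6.09 in WT 0 Gy arrays. The KO-labelled groups did not overlap, though only 2 of the 9 irradiated arrays were well above background, and WT 7 Gy arrays 3 to 5 lay above all WT 0 Gy arrays while array 1 lay within their range and array 2 below it. The changes were -1.32 ± 0.25 (SE, adjusted p 0.000159) and 0.27 ± 0.26 (SE, adjusted p 0.528), and the WT value was -0.31 ± 0.31 (SE, adjusted p 0.669) without arrays 3 to 5. Ccne1 (cyclin E1) lay lower in every WT 7 Gy array than in any WT 0 Gy array, at -1.04 ± 0.41 (SE, adjusted p 0.0697), and passed with the slide as a block (adjusted p 0.0327). E2f1, E2f8, Rrm2 (the small subunit of the reductase) and Tyms (thymidylate synthase) had changes from -0.76 to 0.51 with no call under either label.

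Mki67, the proliferation marker Ki-67, had -3.23 to -2.24 (median -2.49) in KO-labelled 7 Gy arrays, against -2.71, -3.18, -2.69, -2.74 and -2.51 in KO-labelled 0 Gy arrays. For WT, the 7 Gy arrays had -3.64, -3.42, -4.65, -5.18 and -4.68, against -2.86, -2.69, -3.16, -3.12 and -3.06 in WT 0 Gy arrays. The KO-labelled groups overlapped and the WT groups did not, with arrays 3 to 5 below arrays 1 and 2. The changes were 0.18 ± 0.26 (SE, adjusted p 0.601) and -1.34 ± 0.27 (SE, adjusted p 0.000805), and the WT value was -0.56 ± 0.26 (SE, adjusted p 0.216) without arrays 3 to 5. A second Mki67 probe gave -0.32 ± 0.61 (SE, adjusted p 0.788) in WT arrays.

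Cdca3, a mitotic-entry factor that promotes destruction of the CDK1 inhibitor kinase Wee1, has its probe at chr6:124783233-124783292 (plus strand, mm9), with 26.7% G or C.
Cdca3: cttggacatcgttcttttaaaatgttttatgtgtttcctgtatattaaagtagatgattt
It was well above background on 6 of 9 KO-labelled 7 Gy and 4 of 5 KO-labelled 0 Gy arrays, and on 0 of 5 WT 7 Gy and 4 of 5 WT 0 Gy arrays. KO-labelled 7 Gy arrays had -6.46 to -4.83 (median -5.52), against -4.82, -5.93, -4.92, -4.84 and -4.65 in KO-labelled 0 Gy arrays. The WT 7 Gy arrays read -8.06, -7.43, -9.32, -8.57 and -8.03, against -7.27, -5.02, -5.31, -5.2 and -5.5 in WT 0 Gy arrays. Every WT 7 Gy array lay below every other array. It was at least 2.2-fold lower in WT 7 Gy than in WT 0 Gy arrays (adjusted p 5.30e-05, and 0.0141 without arrays 3 to 5). Its KO-labelled change was -0.44 ± 0.39 (SE, adjusted p 0.382).

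Arrays of the 2 doses did not overlap for 8 members in KO-labelled arrays, all lower at 7 Gy, against 19.3% of all genes, and for 0 members were all 7 Gy arrays higher, against 4.8% of all genes. In WT arrays 11 members were lower on all 7 Gy arrays, against 16.5% of all genes, and 1 (Gtse1) was higher, against 12% of all genes. Within slides 1 to 5, the KO-labelled 7 Gy array was the lower one in all 5 pairs for 11 of the 33 members, against 38.7% of all genes, and the higher one for 5, against 20.5% of all genes. The 11 were Ccna2, Ccnb2, Cenpa, Hmmr, Kif23, Mad2l1, Nusap1, Rrm1, Spc25, Tk1 and Ube2c, and the 5 were Cdk1, Mki67, Racgap1, Rrm2 and Tpx2. In the WT pairs 12 members were lower on all 5 slides, against 25.2% of all genes, and 1 (Gtse1) was higher, against 19% of all genes. The 12 were the 10 members that fell, which were called on the same arrays, with Ccne1 and Rrm1. Cks2 was at -0.1 and 0.03 on slides 1 and 2 of the WT pairs and at 1.36, 1.43 and 1.43 on slides 3 to 5.

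**Figure D4:**
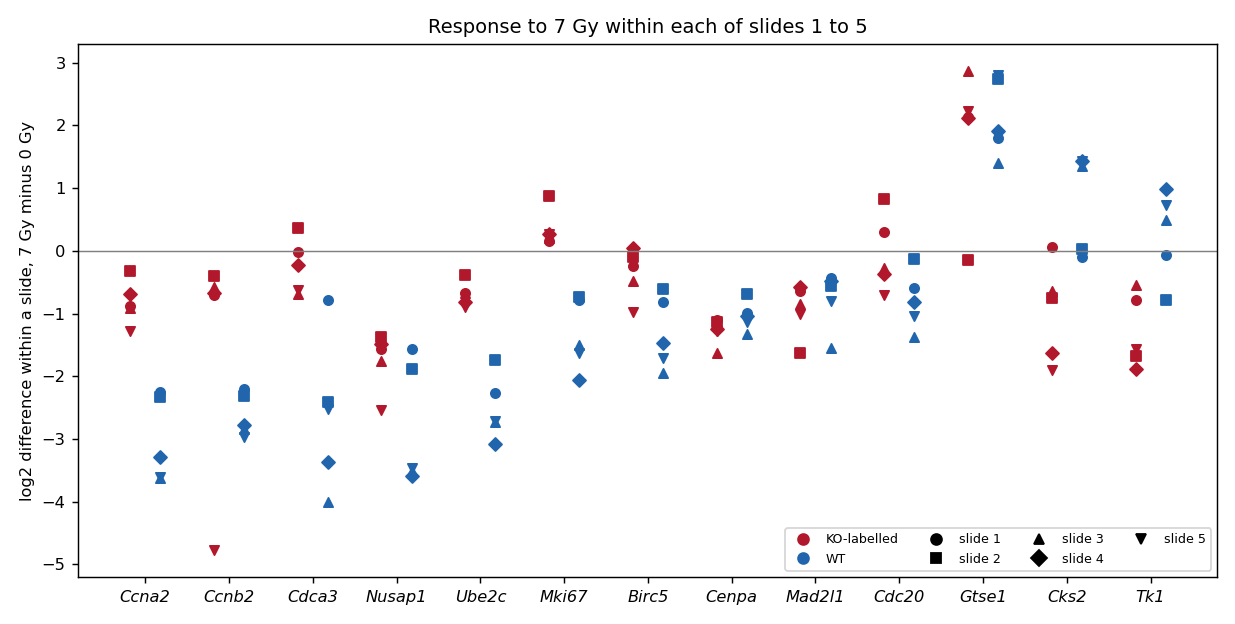
Difference between the 7 Gy and the 0 Gy array of the same slide (log2), for 13 members and slides 1 to 5, in KO-labelled (red, left of each pair) and WT (blue) arrays. Ccna2, Ube2c and Nusap1 lie below 0 in all 10 pairs, and for Cks2 and Tk1 the WT pairs of slides 3 to 5 lie above those of slides 1 and 2; points of Cdca3 (WT) and Gtse1 include arrays not well above background.

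The responses themselves, tested on the same arrays, differed between the labels for 6 members on their chosen probes. The difference (KO-labelled minus WT) was positive for Ccna2, Cdca3, Mki67 and Ube2c, where 3.08% of all genes passed in that direction, and negative for Cks2 and Tk1, where 12.7% of all genes did. It was 2.02 ± 0.39 (SE, adjusted p 0.00259) for Ccna2, 1.62 ± 0.39 (SE, adjusted p 0.00875) for Ube2c, and 1.52 ± 0.37 (SE, adjusted p 0.0106) for Mki67. A second Ube2c probe passed too, at 1.61 ± 0.38 (SE, adjusted p 0.00907). A second Mki67 probe did not pass, at 0.63 ± 0.84 (SE, adjusted p 0.640). Since Cdca3 was not well above background on any WT 7 Gy array, only a bound can be given for its difference, at least 1.62-fold (adjusted p 0.0144). For Cks2 it was -1.71 ± 0.39 (SE, adjusted p 0.00767), and for Tk1 -1.59 ± 0.36 (SE, adjusted p 0.00683). The members' median was 0.44, where that of all genes was -0.27, which puts it 0.71 above all genes. Without WT 7 Gy arrays 3 to 5 the members' median was 0.0633, which is 0.34 above all genes, and with normexp background correction -0.13, which is 0.0867 above them. Within slides the difference was positive on all 5 for 12 of the 33 members, against 15.7% of all genes, and negative on all 5 for 2, against 28.1%. It ran from 1.37 to 2.72 for Ccna2, from 1.36 to 2.27 for Ube2c and from 0.94 to 2.34 for Mki67, and was positive on all 5 for Cdca3. For Tk1 it ran from -2.87 to -0.72, and for Cks2 from -3.33 to 0.15, with slide 1 positive. With the slide as a block Birc5 and Racgap1 also passed, at 0.96 (adjusted p 0.0382) and 1.42 (adjusted p 0.0171), and with the replicate number as a block Ccne1 did too, at 0.85 (adjusted p 0.0110). Of all 15784 genes, 1693 passed as positive and 3466 as negative with the slide block, and 2150 and 4094 with the replicate block. Without a block, the other Birc5 probes were at 1.68 ± 0.52 (SE, adjusted p 0.0318) and 1.31 ± 0.99 (SE, adjusted p 0.381). A second Tpx2 probe passed, at 1.24 ± 0.40 (SE, adjusted p 0.0380), and a second Racgap1 probe did not, at 0.27 ± 0.37 (SE, adjusted p 0.641). If WT 7 Gy arrays 3 to 5 were left out, only Ccna2 passed on the chosen probes, at 1.3 ± 0.37 (SE, adjusted p 0.0412), where 0.697% of all genes passed as positive and 5.88% as negative. Ube2c had 0.97 ± 0.4 (SE, adjusted p 0.145), Mki67 0.73 ± 0.32 (SE, adjusted p 0.167), Cdca3 an adjusted p of 0.133, Cks2 -0.84 ± 0.33 (SE, adjusted p 0.130) and Tk1 -1.01 ± 0.38 (SE, adjusted p 0.116). Of the 19 erythroid markers, 6 also had a difference past the test, all positive (median of the 19, 1.14), and 12 of 18 hepatocyte genes a negative one.

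At 7 Gy and on the chosen probes, KO-labelled arrays had higher levels than WT arrays for 12 members, where 4.43% of all genes were higher, and lower levels for 3, where 18.3% were lower. The largest was Ccna2, 2.15 ± 0.25 (SE, adjusted p 5.21e-06), apart from Cdca3, which was below background in WT 7 Gy arrays and at least 2.42-fold higher in KO-labelled ones (adjusted p 1.92e-05). Ccnb2 was at 1.64 ± 0.48 (SE, adjusted p 0.0161), Cdc20 at 0.97 ± 0.24 (SE, adjusted p 0.00461), Ube2c at 1.4 ± 0.25 (SE, adjusted p 0.000310) and Birc5 at 1.25 ± 0.21 (SE, adjusted p 0.000228). Cdca8 stood at 0.83 ± 0.17 (SE, adjusted p 0.00121), Nusap1 at 1.45 ± 0.31 (SE, adjusted p 0.00169), Prc1 at 1.43 ± 0.31 (SE, adjusted p 0.00222) and Mki67 at 1.72 ± 0.24 (SE, adjusted p 3.18e-05). Rrm2 and Spc25 completed the higher set.

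Rrm2 read -3.49 to -2.21 (median -2.78) in KO-labelled 7 Gy arrays, against -3.03, -2.98, -4.22, -4.36 and -4.15 in WT 7 Gy arrays, a difference of 0.9 ± 0.23 (SE, adjusted p 0.00742). Its 0 Gy levels were -2.85, -3.01, -3.06, -2.87 and -2.75 in KO-labelled arrays, against -3.41, -3.44, -3.31, -3.36 and -3.1 in WT arrays. Spc25 had -4.52 to -3.87 (median -4.22) in KO-labelled 7 Gy arrays, against -4.24, -4.29, -4.7, -5.31 and -5.23 in WT 7 Gy arrays, a difference of 0.54 ± 0.19 (SE, adjusted p 0.0388). For both genes only WT 7 Gy arrays 3 to 5 lay below the KO-labelled 7 Gy range. Spc25 at 0 Gy was -3.94, -3.48, -3.86, -4.06 and -3.87 in KO-labelled arrays, against -4.03, -4.6, -4.29, -4.73 and -4.69 in WT arrays. Leaving out KO-labelled 7 Gy array 1, 2, 3 or 8, or WT 7 Gy array 3, 4 or 5, ended the Spc25 call (adjusted p up to 0.154).

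Prc1 levels were -6.29 to -5.21 (median -5.87) in KO-labelled 7 Gy arrays, against -7.26, -6.57, -7.66, -7.94 and -6.98 in WT 7 Gy arrays, of which 1 was well above background. At 0 Gy they were -6.85, -5.83, -7.03, -7.36 and -5.07 in KO-labelled arrays, against -7.64, -6.48, -6.52, -7.7 and -6.86 in WT arrays. The 7 Gy groups did not overlap, and the 0 Gy groups did. The lower members were Cks2 at -1.32 ± 0.25 (SE, adjusted p 0.000664), Tk1 at -0.92 ± 0.23 (SE, adjusted p 0.00588) and Kif23 at -1.19 ± 0.25 (SE, adjusted p 0.00148). Arrays at 7 Gy did not overlap between labels for Ccna2, Cdca8, Prc1, Mki67 and Cdca3, all higher in KO-labelled arrays, against 0.811% of all genes, and 0 members were lower on all KO-labelled arrays, against 5.33%. Without WT 7 Gy arrays 3 to 5 the higher members called on the chosen probes were Ccna2, 1.43 ± 0.28 (SE, adjusted p 0.00512), Cdca3, adjusted p 0.0114, and Mki67, 0.93 ± 0.24 (SE, adjusted p 0.0254). No lower one was called, where 0.697% of all genes were higher and 6.67% lower. The other calls between the labels ended without those arrays. Rrm2 was then at 0.16 ± 0.25 (SE, adjusted p 0.798), Spc25 at 0.05 ± 0.21 (SE, adjusted p 0.934) and Nusap1 at 0.52 ± 0.35 (SE, adjusted p 0.433). Birc5 was at 0.57 ± 0.22 (SE, adjusted p 0.125), Cdc20 at 0.57 ± 0.32 (SE, adjusted p 0.329) and Ube2c at 0.75 ± 0.3 (SE, adjusted p 0.143). Ccnb2 stood at 1.28 ± 0.71 (SE, adjusted p 0.313), Cdca8 at 0.7 ± 0.24 (SE, adjusted p 0.0897) and Prc1 at 1.06 ± 0.44 (SE, adjusted p 0.155). Of the lower members, Cks2 was at -0.46 ± 0.25 (SE, adjusted p 0.312), Tk1 at -0.34 ± 0.29 (SE, adjusted p 0.574) and Kif23 at -0.63 ± 0.33 (SE, adjusted p 0.268). With the slide as a block, KO-labelled 7 Gy arrays 6 to 9, alone on slide 6, do not enter the difference, and more members were higher. Ccne1 was at 1.27 (adjusted p 0.00912), Cenpe at 1.09 (adjusted p 0.0328), Pttg1 at 0.99 (adjusted p 0.0191) and Racgap1 at 1.15 (adjusted p 0.00628). Tyms passed too (adjusted p 0.0173) and was not well above background on any WT 7 Gy array. On the KO-labelled 7 Gy arrays 6 to 9 that dropped out, Ccne1 read -3.48, -5.42, -4.94 and -6.41. Of all 15784 genes, 2015 were higher and 4006 lower in that fit. Of the erythroid markers 13 were higher in KO-labelled 7 Gy arrays with all arrays and 1 without WT 7 Gy arrays 3 to 5.

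At 0 Gy no member differed between the labels in limma's test, where 0.209% of all genes were higher and 0.0824% lower in KO-labelled arrays, and 4 of the 33 members (12.1%) had an unadjusted p under 0.05, against 9.37% of all genes. Rrm2, Tk1, Ccnb2, Cenpa and Nusap1 were higher on every KO-labelled 0 Gy array than on any WT 0 Gy array, against 6.49% of all genes, and 0 members were lower on all of them, against 3.18%. Nusap1, for example, had a difference of 0.65 ± 0.37 (SE, adjusted p 0.609) and Cenpa of 0.58 ± 0.18 (SE, adjusted p 0.232). With the replicate number as a block, 1 member, Cenpa, was called higher in KO-labelled arrays, at 0.57 with an adjusted p of 0.0423. Of all 15784 genes, 184 were higher and 111 lower in that fit.

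Regulators of the cycle outside the members moved both ways. Of 30 tested of 34 listed, 4 rose and 13 fell in KO-labelled arrays (13.3% and 43.3%), and 6 rose and 9 fell in WT arrays (20% and 30%). Of all genes 12.2% rose and 34.8% fell in KO-labelled arrays, and 10.1% rose and 13.3% fell in WT arrays. Cdkn1a, the p53 target that encodes the CDK inhibitor p21, averaged -1.37 ± 0.54 in KO-labelled 7 Gy and -6.33 ± 1.2 in KO-labelled 0 Gy arrays (SD, n = 9 and 4), and -1.78 ± 0.24 in WT 7 Gy and -5.26 ± 0.31 in WT 0 Gy arrays (SD, n = 5 each). Its log2 change was 4.96 ± 0.36 (SE, adjusted p 8.10e-10) in KO-labelled and 3.48 ± 0.38 (SE, adjusted p 3.44e-07) in WT arrays. Ccng1 (cyclin G1, also a p53 target) rose by 1.74 ± 0.19 (SE, adjusted p 2.60e-07) and 2.17 ± 0.2 (SE, adjusted p 3.86e-08), and Ccnd1 (cyclin D1) by 2.11 ± 0.51 (SE, adjusted p 0.00152) and 2.22 ± 0.53 (SE, adjusted p 0.00364). Rbl1 (p107) was at -1.96 ± 0.32 (SE, adjusted p 3.83e-05) in KO-labelled and -0.75 ± 0.34 (SE, adjusted p 0.124) in WT arrays. Cdc25b, a CDK-activating phosphatase, was at -1.13 ± 0.29 (SE, adjusted p 0.00244) and -2.37 ± 0.3 (SE, adjusted p 2.93e-06). Of other mitosis genes, 10 of 26 were tested, and 1 rose and 3 fell under each label (10% and 30%), in KO-labelled arrays near the shares of all genes. Those were the condensin genes Smc4, Smc2 and Ncapd2, which fell, and Espl1 (separase), which rose. Smc4 was at -1.96 ± 0.23 (SE, adjusted p 5.72e-07) in KO-labelled and -1.32 ± 0.24 (SE, adjusted p 0.000271) in WT arrays.

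All 14 B cell markers tested fell under both labels (median log2 change -4.63 in KO-labelled and -4.26 in WT arrays). T cell markers fell for 9 of 15 in KO-labelled and 6 of 15 in WT arrays, where 1 rose. Platelet markers rose for 9 of 10 and 8 of 10. Hepatocyte genes rose for 12 of 18 in KO-labelled and 16 of 18 in WT arrays. Plasma cell markers fell for 4 and 3 of 5, NK and cytotoxic markers for 4 and 0 of 10, with 2 and 4 higher, neutrophil markers for 4 and 1 of 13, with 1 and 1 higher, and monocyte markers for 3 and 3 of 8, with 2 and 1 higher. Of all genes, 34.8% fell and 12.2% rose in KO-labelled arrays, and 13.3% fell and 10.1% rose in WT arrays. The shares of monocyte and neutrophil markers that fell in KO-labelled arrays, 37.5% and 30.8%, were thus near that of all genes. The part of these cell types in the members' changes was not tested.

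The scaling of the arrays bears on the KO-labelled comparison more than on the WT one. With 3 other scalings (the 75th percentile over all probes, the median and quantile normalization) the median of all genes in the KO-labelled response lay 0.19 to 0.33 higher, and in the WT response -0.02 to 0.04. The members' KO-labelled median was then 0.11, 0.03 and -0.06, and relative to all genes 0.04, 0.04 and 0.01. Of all genes called in KO-labelled arrays 26% were higher, and with the 75th percentile over all probes 46.7% were. For the difference of responses the same share was 19.5% and 60.4%, for the labels at 7 Gy 19.5% and 48.1%, and for the labels at 0 Gy 71.7% and 52.6%. Under those 3 scalings no called member turned its direction, and calls were lost for 5, 3 and 7 of 44 called values. With normexp background correction (offset 50), 4 of the 44 kept their call: Nusap1 under both labels, Ube2c in WT arrays and Ube2c between the labels at 7 Gy. Calls over all genes fell too, in KO-labelled arrays from 1925 higher and 5490 lower to 795 and 574.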

How the data were processed

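RNA of whole blood was hybridised to 24 one-colour arrays. Per the file headers the authors extracted the deposited spot intensity values with Agilent Feature Extraction 12.0.2 (mm9 coordinates), as signals already corrected for background. The deposited value table holds the authors' log2 values, within 0.01 of the log2 scanner signal minus a constant per array for 71.7% to 94.9% of entries (column medians 5.76 to 7.18). What its scaling and centring are stays unknown, and it served as an alternative.

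Repeat spots were averaged, each array's 75th percentile over 7851 probes well above background on all arrays was subtracted from log2 signals, a probe had to be well above background on 5 or more arrays (19647 probes, 15784 genes), and a gene was read from its probe of highest mean. Of 39429 probes, 28663 were named by accession, 3300 by symbol and 160 by an older symbol, and 7306 kept the name in the files. One limma 3.58.1 fit (R 4.3.3) of the 4 groups gave the 5 comparisons, with a call where the Benjamini-Hochberg adjusted p over all genes was under 0.05, and was tested on simulated data. The number of arrays limits the precision.

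Slides 1 to 5 each held 1 array of every group with the same replicate number, and slide 6 held KO-labelled 7 Gy replicates 6 to 9, so the numbers pair arrays by slide. With the slide or the replicate number as a block, replicates 6 to 9 therefore do not enter any estimated difference, which rests on slides 1 to 5. Over 30 such pairs, deviations from group means correlated at -0.23 to 0.70 (median 0.20, 21 over 0.1). Alternatives were other background corrections, scalings, filters, probes and blocks, the deposited value table, and each array left out. All 52 members are accounted for by role, and array values are given for members called in a response (up to 4 per role, by size), in the difference of responses or between labels, with Mki67, Top2a and Cdkn1a always named. Members and lists were chosen with earlier results of these data known.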

Additional observations from a re-analysis of the deposited data

Results flagged for a closer look

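Among 132 groups of 4 to 10 samples of the 33 members tested, 14 held a sample far from the others of its group (Dixon's test at 95%), where chance flags about 1 in 20 groups. In KO-labelled 7 Gy arrays these were Tyms (-5.06) and Cenpe (-3.41) on array 3, Ccnb2 (-6.22) on array 5 and Mad2l1 (-6.95) on array 6. In KO-labelled 0 Gy arrays they were Ndc80 (-3.68) and Gtse1 (-6.06) on array 2 and Cks2 (-5.07) on array 5. The Cks2 flag arose with arrays 1 and 4 averaged. Taken singly these read -5.71 and -5.11, so array 4 lay beside array 5, which was not far from every array of its group. In WT 7 Gy arrays they were E2f8 (-8.53) and Hmmr (-8.20) on array 5. In WT 0 Gy arrays they were E2f1 (-7.53), Cdkn3 (-6.04), Nusap1 (-0.30) and Cdca3 (-7.27), all on array 1, and Cdk1 (-7.85) on array 4. Of the 14 values, those on KO-labelled 7 Gy arrays 3 and 5, KO-labelled 0 Gy array 2 and WT 0 Gy array 1 come from the 4 arrays whose repeat spots differed most (SD over 0.12 on the log2 scale, 0.132 to 0.254).

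The response to 7 Gy differed between the labels (KO-labelled minus WT, limma's test) for 6 members on their chosen probes: Ccna2 (2.02), Mki67 (1.52), Ube2c (1.62), Cks2 (-1.71), Tk1 (-1.59) and Cdca3. A second Mki67 probe, at 0.63, did not pass. For Cdca3 the fitted 2.18 is not a measured size, since no WT 7 Gy array was well above background, and the bound is at least 1.62-fold. Without WT 7 Gy arrays 3 to 5, only Ccna2 passed.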

How the results depend on the processing

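Of 588 values of called members under 14 alternatives, 477 kept their direction and call, 93 kept their direction without the call and 18 turned. The falls of Nusap1 under both labels and of Ube2c in WT arrays kept their calls under all 14. Counts below are of members called, as higher and lower, where all arrays gave 2 and 9 for the response in KO-labelled arrays, 2 and 10 in WT arrays, 4 and 2 for the difference of responses, 12 and 3 between labels at 7 Gy, and 0 and 0 at 0 Gy. Normexp background correction gave 0 and 1, 0 and 2, 0 and 0, 1 and 0. Of all 15784 genes it gave 795 and 574, 384 and 369, 0 and 0, and 98 and 136. It raised the median change of all genes by 0.73 in KO-labelled and by 0.65 in WT arrays. It turned the KO-labelled changes of Rrm1 (0.21), Tk1 (0.34), Cks2 (0.47), Mad2l1 (0.34), Cenpa (0.0187) and Kif23 (0.64), the WT changes of Mad2l1 (0.68), Cdc20 (0.63), Cenpa (0.38), Birc5 (0.0811), Mki67 (0.15) and Cdca3 (0.54), the difference for Cdca3 (-0.0125), and at 7 Gy Prc1 (-0.10) and Cdca3 (-0.0108). The cause was not tested.

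The 75th percentile over all probes gave 2 and 5 in KO-labelled arrays, 1 and 10 in WT arrays and 7 and 2 for the difference. Of all 15784 genes it gave 3059 and 3493, 1446 and 2029, and 889 and 582. Median scaling gave 7 members higher for the difference, where 784 of all genes were. Quantile normalization gave 1 higher in WT arrays and 0 lower for the difference, where 1456 and 634 of all genes were. A filter for probes that every array detected above background, which leaves 10 members, gave 0 and 3 in KO-labelled arrays, 0 and 6 in WT arrays, and 0 lower both for the difference and at 7 Gy. Of the 6789 genes it leaves, it gave 1219 and 2685, 805 and 1370, and 1152 and 1429 lower. No filter gave 1 higher under each label, where 1634 (KO-labelled) and 1245 (WT) of 29711 genes were. The mean of a gene's probes gave 1 higher in KO-labelled arrays, where 1872 of 15784 genes were. The authors' deposited table gave 4 lower in KO-labelled arrays, 1 higher in WT arrays, 0 lower for the difference and 1 lower at 7 Gy. Of all genes, 2721, 1193, 226 and 835 were called in those 4 ways. That table turned Mad2l1 in KO-labelled (0.63) and WT arrays (0.40). The cause was not tested. Without the 4 arrays with the least even repeat spots, chosen after seeing the data, 1 rose in WT arrays, where 1774 of 15784 genes rose. Without WT 7 Gy arrays 3 to 5, also chosen then, WT arrays gave 1 and 5, the difference 1 and 0, and the labels at 7 Gy 3 and 0, and Cks2 in WT arrays turned (-0.0369).

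With the replicate number as a block, the near-identical KO-labelled 0 Gy arrays were counted as separate samples. The KO-labelled 7 Gy arrays alone on slide 6 did not enter any estimated difference in that fit. It gave 4 and 10 in KO-labelled arrays, 1 and 12 in WT arrays, and 7 and 2 for the difference. Between labels it gave 17 and 3 at 7 Gy, and 1 and 0 at 0 Gy. With the slide as a block KO-labelled arrays gave 4 and 10 and the difference 6 and 2. Of all 15784 genes, that block gave 3483 and 6004 in KO-labelled arrays and 1693 and 3466 for the difference. Leaving out each array in turn gave, in KO-labelled arrays, 1 to 2 higher and 8 to 10 lower, in WT arrays 1 to 2 higher and 8 to 11 lower, for the difference 4 to 6 higher and 2 lower throughout, at 7 Gy 11 to 14 higher and 3 lower throughout, and at 0 Gy 0 in both directions. Dim signals left 19 of the 52 members untested and also limit tested ones, since only 10 of the 33 were well above background on all 24 arrays.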
